A study of Homo sapiens with 8 samples.

Results

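Small nucleolar RNAs (snoRNAs) and small Cajal body RNAs (scaRNAs) made up 118 of the 6326 genes, and 181 of the 22506 peaks, in a table of Argonaute 2 (Ago2) binding sites in 293S cells. They were taken as all peaks whose gene symbol begins with SNORA (H/ACA box snoRNAs; 39 genes, 55 peaks), SNORD (C/D box snoRNAs; 71 genes, 97 peaks) or SCARNA (Cajal body RNAs; 8 genes, 29 peaks). 293S cells are an adherent line derived from HEK293, of human embryonic kidney. Ago2, the protein that holds microRNAs on their targets, was linked to the RNAs it touches and purified with antibodies (CLIP), from untreated control cells and from cells given 20 µg/mL emetine for 60 minutes. Emetine is an alkaloid that blocks translation elongation. There was 1 culture per treatment, split into 3 CLIP aliquots with different Ago2 antibodies and 1 RNA-seq aliquot, so every p-value below measures the spread between aliquots and antibodies and none measures the spread between cultures.

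H/ACA and C/D snoRNAs guide chemical modification of ribosomal RNA in the nucleolus. H/ACA snoRNAs carry the pseudouridine synthase dyskerin (DKC1), and C/D snoRNAs carry the ribose methyltransferase fibrillarin (FBL). scaRNAs can have either kind of box, or both, and guide modification of spliceosomal RNAs in Cajal bodies. Most human snoRNAs are cut out of introns of a host gene, and some are known to give rise to shorter fragments that associate with Argonaute proteins.

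The class names could be checked against sequence for the 109 genes that matched a GENCODE v29 transcript. A C box, spelled TGATGA on the transcript strand, lay within the first 20 bases of 40 of 63 SNORD genes and of 0 of 39 SNORA genes, against 0.575% of the 206604 GENCODE transcripts of at least 50 bases. A D box, CTGA, lay within the last 15 bases of 60 of 63 SNORD genes, 1 of 39 SNORA genes and 7.19% of all transcripts. ACA lay within the last 8 bases of 37 of 39 SNORA genes, 7 of 63 SNORD genes and 11.1% of all transcripts. The 7 matched SCARNA genes were mixed, with a C box in 3, a D box in 4 and a 3'-end ACA in 3. These 7 include SCARNA17, whose GENCODE model was shorter than its peaks and had no C box, D box or ACA. The median length was 133 nt for SNORA, 76 nt for SNORD and 300 nt for the 6 SCARNA genes with a usable length. Each class is shown by 1 of its 3 genes with the most CLIP reads. The sequences below are those of SNORD30 for the C/D class, SNORA33 for the H/ACA class and SCARNA3 for the Cajal body class. They are GENCODE v29 transcripts written 5' to 3', and capitals mark the C box and D box, or the ACA near the 3' end.
SNORD30: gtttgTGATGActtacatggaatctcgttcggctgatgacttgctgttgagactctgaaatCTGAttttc
SNORA33: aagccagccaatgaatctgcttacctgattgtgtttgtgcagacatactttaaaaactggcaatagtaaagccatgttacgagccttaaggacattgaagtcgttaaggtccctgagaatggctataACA
SCARNA3: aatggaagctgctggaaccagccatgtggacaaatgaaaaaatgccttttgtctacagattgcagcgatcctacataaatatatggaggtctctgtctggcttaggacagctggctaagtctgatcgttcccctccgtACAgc

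SNORD30 is the compact type, with the boxes close to both ends. SNORA33 carries the ACA at the 3' end of a longer transcript, and SCARNA3 has the same H/ACA layout.

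The libraries are numbered within a treatment by the falling value of 1 read after the authors' normalisation, and which antibody made which library is unknown. Emetine libraries 1 to 3 had 41897, 105411 and 98116 reads within listed peaks, control libraries 1 to 3 had 40522, 118132 and 104579. Of these, members held 3.10%, 1.14% and 2.76% with emetine against 2.57%, 1.15% and 2.47% in the control. Library 2 of each treatment therefore stood apart, with the lowest snoRNA share and with 71 (emetine) and 65 (control) of the 181 member peaks without a read, against 19 to 38 in the other 4. Library 1 of each treatment also stood apart: peaks in noncoding exons, mainly of a few long noncoding RNAs such as MALAT1, took 46.0% and 43.1% of its reads, against 6.55% to 14.3% elsewhere. Of the markers of blood cells, fibroblasts and endothelium that were looked for, 0 of 7 had a peak. Of 3 genes looked for as belonging to HEK293-derived cells, NEFL and VIM had peaks and NEFM had none. A gene without an Ago2 peak may still be expressed, so these counts cannot show which cell types were present.

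All 181 member peaks were annotated by the authors as exons of noncoding transcripts, and 0 overlapped a peak of another gene. Member peaks were seen in more libraries than most: 54 of 181 (29.8%) held reads in all 6 libraries, against 1083 of all 22506 peaks (4.81%). This held for 37 of 97 SNORD, 13 of 55 SNORA and 4 of 29 SCARNA peaks. Among the 779 peaks in other noncoding exons the share was 38.5%, higher than among the members. Reads in 1 library alone were found for 2 member peaks (1.10%), against 26.4% of all peaks. Member peaks were 45 nt wide at the median, against 30 nt for all peaks and 42 nt for other noncoding exon peaks. The peaks of a SNORD gene together covered a median of 72.7% of its length, those of a SNORA gene 43.4% and those of a SCARNA gene 44.3%. Of 63 neighbouring pairs of member peaks 29 overlapped, so sums over a gene count some reads more than once.

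Summed over genes, C/D snoRNAs held the most Ago2 reads of the 3 classes and SCARNA genes the fewest in every library. The classes differ in size, with 71 SNORD, 39 SNORA and 8 SCARNA genes. Per gene the order differed. The median gene held 62 reads over the 6 libraries for SNORD, 34 for SNORA and 82 for SCARNA, with reads of overlapping peaks counted more than once. Emetine libraries 1 to 3 had a SNORD share of 1.84%, 0.573% and 1.64% of the reads in listed peaks, against 1.49%, 0.588% and 1.64% in control libraries 1 to 3. The SNORA share was 0.812%, 0.490% and 0.695% with emetine against 0.733%, 0.460% and 0.573% in the control. The SCARNA share was 0.446%, 0.0797% and 0.423% with emetine against 0.343%, 0.0982% and 0.257% in the control. The treatments overlapped in each class, and the spread between libraries 2 and 3 of 1 treatment was wider than the difference between the treatment means. Mean shares were 1.35% ± 0.681 (SD, n = 3) with emetine and 1.24% ± 0.569 in the control for SNORD (exact permutation test, two-sided, p = 0.7). They were 0.665% ± 0.163 and 0.588% ± 0.137 for SNORA (exact permutation p = 0.7, n = 3 per group) and 0.316% ± 0.205 and 0.233% ± 0.124 for SCARNA (exact permutation p = 0.6, n = 3 per group). After Benjamini-Hochberg adjustment over the 3 classes each p was 0.7, and 3 libraries against 3 cannot give a p below 0.1. Emetine minus control, the mean shares differed by 0.112 percentage points for SNORD, 0.0769 for SNORA and 0.0835 for SCARNA, and by 0.176, 0.1005 and 0.135 with library 2 of each treatment left out.

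**Figure D1:**
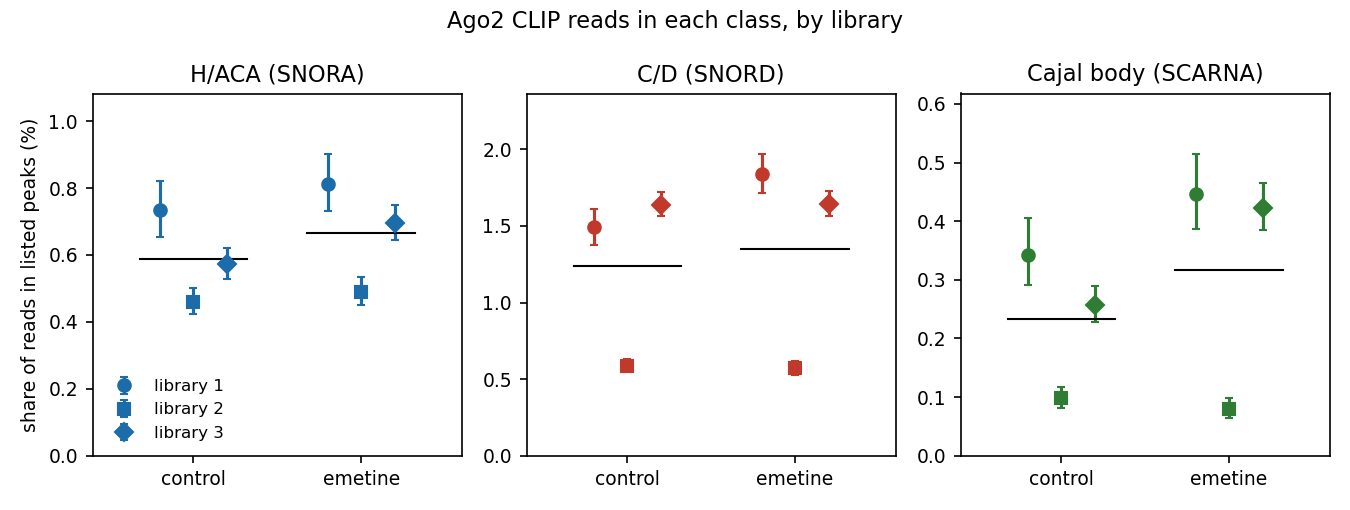
Share of each CLIP library's reads in listed peaks (percent, vertical axis from 0) that lay in peaks of each class, for control and emetine. Points are single libraries with Wilson 95% intervals of counting error, and lines are the means of 3; library 2 is lowest in every panel, for SNORD at 0.573% and 0.588%, and the treatments overlap.

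Library 2 had fewer reads in SNORD and SCARNA genes relative to SNORA genes than the other libraries. There were 2.26, 1.17 and 2.37 SNORD reads per SNORA read with emetine, against 2.03, 1.28 and 2.86 without it. SCARNA reads per SNORA read were 0.55, 0.163 and 0.609 with emetine against 0.468, 0.214 and 0.449 in the control. Whether the classes responded differently to emetine was tested on these within-library ratios. The difference in the mean log2 ratio, emetine minus control, was -0.08 for SNORD over SNORA, 0.09 for SCARNA over SNORA and 0.18 for SCARNA over SNORD. The exact permutation p was 0.9, 0.9 and 0.8, and 0.9 for each pair after adjustment over the 3 pairs of classes. The sign of the first pair changed when emetine library 2 or control library 3 was left out, and that of the second without emetine library 1 or 3 or control library 2. With library 2 of each treatment left out the 3 differences were -0.06, 0.34 and 0.40.

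Within the classes the reads were spread unevenly. The 3 leading genes held 80.0% of the SCARNA reads and 52.2% of the SNORA reads, but 17.8% of the SNORD reads. In the H/ACA class these were SNORA74A, SNORA33 and SNORA6. SNORA74A, which lies in MATR3 (nuclear matrix protein matrin-3), held 103, 158 and 134 reads with emetine, against 60, 111 and 94. In normalised reads SNORA74A had 913, 475 and 376 with emetine against 480, 313 and 228 in the control. The treatments overlapped, since the highest control value (480) lay above 2 of the emetine values (475 and 376). Scaled by depth, the emetine total was 1.66 times the control total (95% exact interval 1.41 to 1.94, counting error only). For the gene sum, limma gave a log2 change of 0.75 with an SE of 0.55 over 3 libraries per treatment and an adjusted p of 0.80 over all genes. The log2 change was 0.38 without emetine library 1 and 0.49 without control library 3. SNORA33, which lies in the ribosomal protein gene RPS12, held 46, 77 and 144 reads with emetine against 32, 121 and 188 in the control. Its log2 change was -0.02 (SE 0.61, limma adjusted p = 1.00), and 0.25 with library 2 of each treatment left out. SNORA6 and SNORA62 both lie in RPSA (a ribosomal protein that also serves as a laminin receptor). SNORA6 held 31, 59 and 62 reads with emetine against 49, 32 and 52 in the control. SNORA62 held 51, 19 and 48 against 21, 20 and 19, a ratio of 2.19 (95% exact interval 1.59 to 3.03). In normalised reads its emetine libraries 2 and 3 (57 and 135) lay within the range of the controls (46 to 168). SNORA67, SNORA51, SNORA21 and SNORA45 followed, with ratios of read totals between 1.18 and 1.98. SNORA51 held 5, 38 and 7 reads with emetine against 9, 13 and 6, and emetine library 2 alone lay outside the range of the controls on the high side. The limma adjusted p of these 8 genes lay between 0.80 and 1.00.

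The C/D class was led by SNORD30, SNORD100 and SNORD35A. SNORD30, in the noncoding host SNHG1, held 57, 91 and 58 reads with emetine against 31, 33 and 136 in the control, over a single peak at chr11:62621137-62621204 (hg19, minus strand) that spans nearly the whole gene. In normalised reads SNORD30 had 505, 273 and 163 with emetine against 248, 93 and 330 in the control, and the treatments overlapped. Its log2 change was 0.52 (SE 0.71, limma adjusted p = 0.85) and -0.02 without control library 2. SNORD100, the neighbour of SNORA33 in RPS12, held 32, 68 and 58 against 28, 11 and 138, with a log2 change of 0.66 (SE 0.81, limma adjusted p = 0.81) that became -0.35 with library 2 of each treatment left out. SNORD35A, in the ribosomal protein gene RPL13A, held 56, 39 and 95 against 32, 11 and 96 reads. SNORD46 held 32, 14 and 79 against 29, 22 and 121. Both had their highest count in library 3 of each treatment. In normalised reads library 1 was instead the highest for SNORD35A in both treatments and for SNORD46 with emetine. SNORD27 and SNORD22 lie with SNORD30 in SNHG1. SNORD27 held 15, 45 and 51 reads with emetine against 2, 86 and 15, so its control libraries covered the whole range from 2 to 86. SNORD22 held 28, 14 and 33 against 34, 33 and 66, the lowest ratio of read totals of the 8 leading C/D genes at 0.63 (95% exact interval 0.47 to 0.84; limma adjusted p = 0.85). SNORD10 and SNORD44, the last of the 8, had ratios of 1.15 and 0.78.

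Among the scaRNAs, SCARNA2 held 97, 40 and 264 reads with emetine against 91, 46 and 157 in the control, over 8 peaks. In normalised reads these were 860, 120 and 741 against 728, 130 and 381, with library 2 the lowest and library 1 the highest in both treatments. The emetine total was 1.52 times the control total after scaling (95% exact interval 1.30 to 1.77). The gene's log2 change was 0.36 (SE 0.58, limma adjusted p = 0.90), which turned to -0.15 without emetine library 1, -0.04 without emetine library 3 and -0.31 without control library 2. SCARNA17 held 61, 3 and 21 reads against 32, 2 and 29, with its lowest count in library 2 of each treatment. SCARNA3 went the other way, with 6, 21 and 46 against 3, 20 and 29: its lowest count was in library 1 of each treatment. SCARNA10 held 10, 8 and 21 reads against 3, 28 and 17, and SCARNA12 held 3, 1 and 43 against 7, 15 and 8. SCARNA7 held 7, 3 and 11 against 0, 3 and 20, and SCARNA9 held 2, 8 and 7 against 3, 0 and 2. SCARNA16, with 1, 0 and 2 against 0, 2 and 7, had 12 reads in all, 1 more than the smallest number of any listed peak. The limma adjusted p of all 8 SCARNA genes lay between 0.80 and 1.00.

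**Figure D2:**
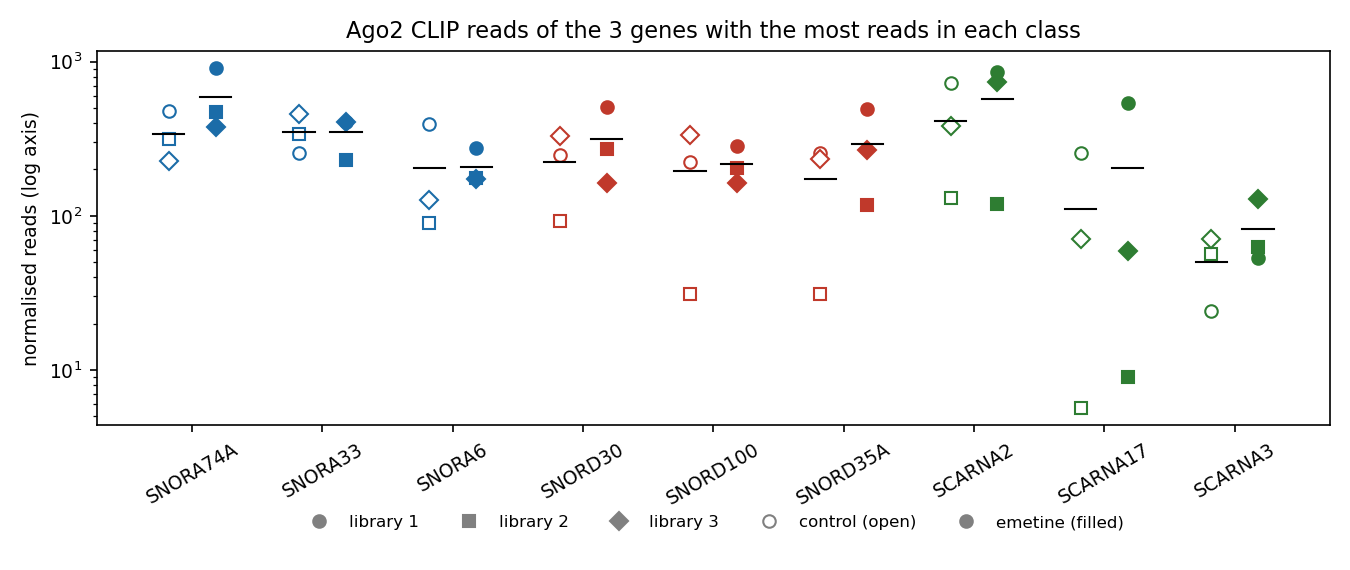
Normalised Ago2 CLIP reads (recovered reads times the value of 1 read, log axis) summed over the peaks of the 3 genes with the most reads in each class. Open symbols are control and filled symbols emetine, the symbol's shape gives the library and lines are means of 3; the treatments overlap for every gene, and library 2 is the lowest of each treatment for SCARNA2 and SCARNA17.

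No member peak passed the test for a difference between emetine and control. In limma, 0 of 181 member peaks had an adjusted p under 0.05 (0.0% of all 22506 peaks), and the smallest adjusted p among members was 0.784. At an unadjusted p under 0.05 there was 1 member peak (0.552%), against 1.07% of all peaks. With limma-voom there were 3 (1.66%), against 2.45% of all peaks. Member peaks with a positive log2 change numbered 104 and those with a negative one 77, against 50.2% positive among all peaks. The median log2 change was 0.06 for SNORA, 0.22 for SNORD and 0.18 for SCARNA peaks, against 0.01 for all peaks, and the median standard error of a member peak was 1.84. The balance of signs changed when library 2 of 1 treatment was left out. Without control library 2 it was 72 positive and 109 negative (49.0% positive among all peaks). Without emetine library 2 it was 136 and 45 (45.3% positive among all peaks). With library 2 of each treatment left out it was 114 and 66 (42.6% positive among all peaks). Without emetine library 2, 10 member peaks (5.52%) had an unadjusted p under 0.05, against 1.33% of all peaks, and 0 passed after adjustment. Summed per gene, 0 of 118 members passed (0.0% of all 6326 genes), and 0 had an unadjusted p under 0.05, against 1.85% of all genes.

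The 4 member peaks with the smallest p-values were in SNORD21, SNORA46, SNORA62 and SNORD17. The SNORD21 peak at chr1:93302877-93302912 held 0 reads in each emetine library, against 3, 9 and 6 in the control (log2 change -4.44, SE 2.06). Its neighbour in the same gene held 0, 8 and 1 against 7, 2 and 0 reads. The SNORA46 peak at chr16:58582446-58582507 held 1, 0 and 1 reads with emetine against 4, 21 and 12 in the control (log2 change -3.55, SE 1.84). The SNORA62 peak at chr3:39452582-39452610 held 16, 10 and 26 against 5, 0 and 7 (log2 change 2.93, SE 1.62), and the SNORD17 peak at chr20:17943415-17943465 held 18, 10 and 21 against 4, 0 and 12 (log2 change 2.74, SE 1.61). In normalised reads the treatments did not overlap for SNORD21 and SNORA46, where each control library exceeded each emetine library, and overlapped for SNORA62 and SNORD17. For all 4 the limma adjusted p was 0.784. Without control library 2, which held 0 reads of both, the log2 change was 1.34 for the SNORA62 peak and 1.08 for the SNORD17 peak, and with library 2 of each treatment left out it was -2.36 for the SNORA46 peak.

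Several snoRNA peaks ranked near the top of the whole table in Ago2 reads relative to RNA. The authors' deposited average is a natural logarithm of CLIP over RNA, in which the CLIP reads are those of 1 peak and the RNA reads those of the whole transcript, so transcript length and RNA depth enter it. In it a SNORA74A peak at chr5:138614605-138614640 (hg19, plus strand) ranked 2nd of 22506 peaks. It held 91, 145 and 118 reads with emetine against 59, 111 and 62 in the control, while the gene had 14 RNA reads in each treatment. The single SCARNA3 peak, at chr1:175937570-175937597 on the minus strand, ranked 4th, with 5 emetine and 6 control RNA reads for the gene. A SNORA33 peak at chr6:133138424-133138483 ranked 9th, holding 43, 62 and 124 against 28, 92 and 153 CLIP reads beside 30 and 85 RNA reads for the gene. Peaks in SNORD102, SNORD46, SNORD35A and SNORD100 ranked 16th, 20th, 34th and 39th. In all, 66 of 181 member peaks lay in the top 10.0% of the table: 24 of 55 SNORA, 38 of 97 SNORD and 4 of 29 SCARNA peaks. The median deposited average, a natural logarithm, was -4.19 for SNORA, -4.54 for SNORD and -5.16 for SCARNA peaks, against -5.94 for all peaks and -8.02 for other noncoding exon peaks.

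Ago2 reads did not follow RNA reads among the listed members. Genes are listed only through a CLIP peak, and the smallest peak held 11 CLIP reads. No such floor was set on RNA reads, and snoRNAs with RNA but no peak are absent. What this selection does to the relation was not tested. Across the 118 genes Spearman's rho between CLIP reads over 6 libraries and RNA reads over both libraries was 0.11, and it was -0.02 within SNORA, 0.15 within SNORD and 0.24 within SCARNA. Genes share the same libraries and are not replicates, so these values are descriptions. SNORD28, which lies in SNHG1 beside SNORD30, makes the contrast plain. It had the most RNA reads of all members, 59499 with emetine against 27929, and held 17, 1 and 21 CLIP reads with emetine against 14, 0 and 43. SNORD30 had 927 and 500 RNA reads and more CLIP reads, 206 with emetine against 200 in the control. Per length, the normalised RNA reads of SNORD28 were 199116 (emetine) and 237386 (control) per 100 nt, against 3324 and 4553 for SNORD30. SNORA74A stood at 18 and 45 per 100 nt. The class medians per 100 nt were 365 with emetine against 1036 in the control for SNORA, 1164 and 1677 for SNORD, and 341 and 592 for SCARNA.

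RNA abundance itself was lower with emetine for nearly all members. There was 1 RNA library per treatment, with 3771348 emetine and 1562475 control reads over the listed genes, so these differences have no replicate check and no test, and intervals cover counting error only. RNA log2 ratios are emetine over control, from reads times the authors' factor plus 1, for genes that reached 50 reads in the sum of the libraries. In bulk RNA, less RNA per cell and fewer cells holding it cannot be told apart. Of 104 such members 103 had a ratio below 0, against 49.1% of all 5814 genes. A ratio below -1 was found for 27 (26.0%), against 0.791% of all genes, and one above 1 for 0 (0.843% of all genes). The 95% exact binomial interval lay wholly below 0 for 86 members (82.7%; 13.8% of all genes) and wholly above 0 for SNORA27 alone (13.8% of all genes). The other 14 members, 7 SNORA, 5 SNORD and 2 SCARNA genes, had fewer than 50 reads.

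H/ACA snoRNAs had the lowest and most scattered RNA ratios. Their median log2 ratio was -0.999 over 32 genes, with a range of -3.75 to 0.41 and an SD of 0.98 between genes, and 16 were below -1. C/D snoRNAs had a median of -0.57 over 66 genes, a range of -1.52 to -0.02 and an SD of 0.36, and 10 were below -1. The 6 SCARNA genes lay close together between -1.10 and -0.73, with a median of -0.80 and 1 gene below -1. All genes had a median of 0.01 and an SD of 0.35. Scaling to all RNA reads of the listed genes in place of the authors' factors raised the median of all genes by 0.073 and left 97 of 104 members below 0 (37.8% of all genes) and 24 below -1 (0.671% of all genes).

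The lowest 6 ratios were all of H/ACA snoRNAs: SNORA25, SNORA63, SNORA33, SNORA44, SNORA38 and SNORA38B. SNORA25 had 149 RNA reads with emetine against 794. Its log2 ratio of -3.75 (95% exact interval -4.02 to -3.50) was the lowest of all 5814 genes. The deeper emetine library held fewer reads than the control for this gene, and the same was true of the other 5. SNORA63 had 1009 and 2945 reads (-2.89, 95% exact interval -2.99 to -2.79). SNORA33 had 30 and 85 reads, and its few reads left a wide interval (-2.83, 95% exact interval -3.50 to -2.23). The log2 ratios of SNORA44, SNORA38 and SNORA38B were -2.52, -2.38 and -2.28. SNORA38 and SNORA38B are 83.3% identical in sequence, so reads may be shared between them. At the other end SNORA27 had 7260 and 2146 reads and the highest ratio, 0.41 (95% exact interval 0.34 to 0.48). SNORD33, SNORA68, SNORA20, SNORA56 and SNORD8 followed at -0.02, -0.03, -0.04, -0.04 and -0.06, with intervals that held 0, and scaled to all RNA reads these 5 turned positive, at 0.02 to 0.05. The genes at both ends of this range are H/ACA snoRNAs of nearly the same length, shown here to compare their layout, with the ACA near the 3' end in capitals.
SNORA25: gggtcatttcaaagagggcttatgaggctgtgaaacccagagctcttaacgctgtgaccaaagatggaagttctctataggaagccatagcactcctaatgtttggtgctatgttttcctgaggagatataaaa
SNORA63: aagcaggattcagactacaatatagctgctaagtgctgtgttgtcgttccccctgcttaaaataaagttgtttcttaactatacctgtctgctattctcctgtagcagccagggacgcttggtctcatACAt
SNORA27: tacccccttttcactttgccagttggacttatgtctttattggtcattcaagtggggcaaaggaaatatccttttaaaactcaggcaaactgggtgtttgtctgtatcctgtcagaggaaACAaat

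SNORA63 and SNORA27 have an ACA within their last 8 bases, though not at the same distance from the 3' end. The GENCODE model of SNORA25 has no ACA within its last 8 bases, and it is 1 of the 2 SNORA genes of 39 without one. CLIP reads on these genes were few: SNORA25 held 1, 7 and 4 with emetine against 0, 20 and 2 in the control, SNORA63 held 0, 2 and 9 against 4, 3 and 0, and SNORA27 held 0, 19 and 9 against 3, 1 and 3. The 12 CLIP reads of SNORA38B were all in control library 3.

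**Figure D3:**
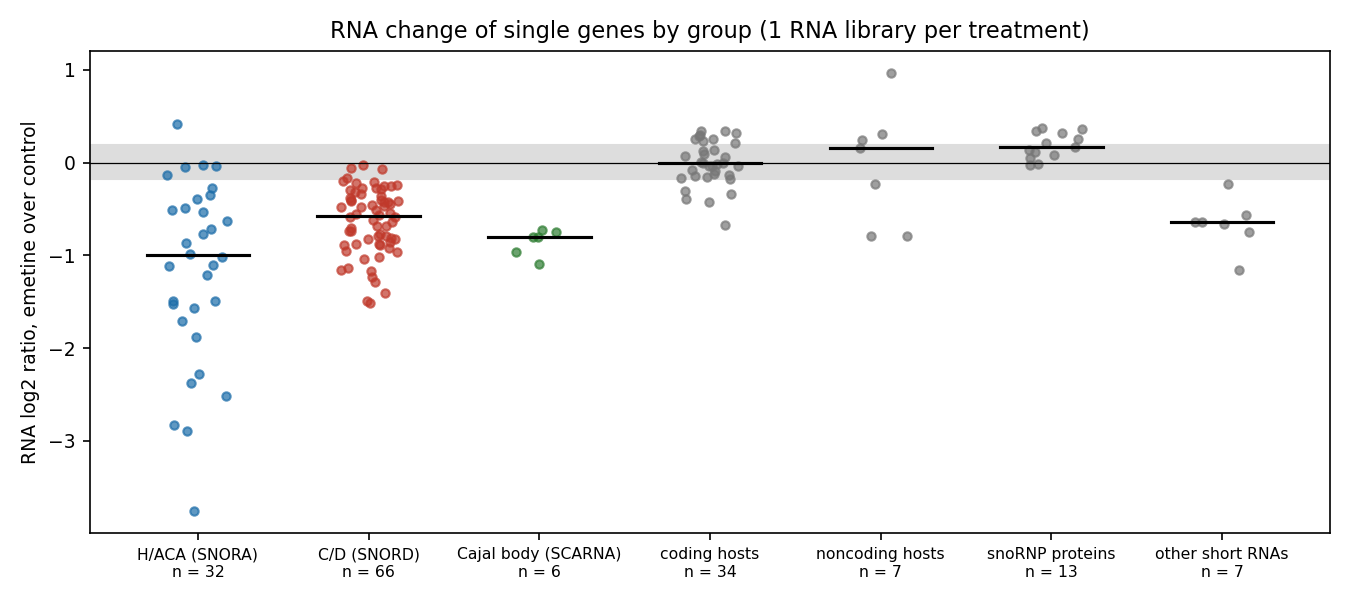
RNA log2 ratio, emetine over control, of single genes (points) with at least 50 RNA reads, by group, with the group median as a line and the middle range of all genes (lower to upper quartile) in grey. With the authors' factors SNORA genes reach down to -3.75 and SNORD and SCARNA genes lie below 0. SNORD8, SNORD33 and SNORD117 lie above 0 when scaled to all RNA reads. The medians of coding hosts (-0.01) and snoRNP proteins (0.17) lie within the grey band, and the other short RNAs have a median of -0.65.

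RNA ratios were only weakly related to length within the SNORA and SNORD classes. Spearman's rho between RNA log2 ratio and transcript length was -0.29 over the 94 members with both values, -0.13 within SNORA (n = 32) and -0.07 within SNORD (n = 58). Within SCARNA it was 0.63, over 4 genes. With the number of RNA reads rho was 0.36 over the 104 members, 0.27 within SNORA and 0.46 within SNORD, a description over genes of the same 2 libraries. Other short structured RNAs in the table had low ratios as well. These were chosen after values were seen. All 7 with at least 50 reads lay below 0, with a median of -0.65: RPPH1 (the RNA of RNase P) at -1.16, TERC (telomerase RNA) at -0.74, RMRP (the RNA of RNase MRP) at -0.66, and the minor spliceosomal RNAs RNU6ATAC, RNU12, RNU11 and RNU4ATAC at -0.65, -0.64, -0.57 and -0.23. All 78 noncoding genes outside the members, these 7 and the noncoding hosts among them, had a median of -0.24. Whether the 2 RNA libraries differed in how well they captured short or structured RNA was not tested.

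The host genes did not share the low ratios of the snoRNAs they contain. For 72 members with at least 50 RNA reads, GENCODE v29 placed the gene inside another gene on the same strand that also had an RNA ratio, 42 hosts in all. The member's ratio was lower than its host's in 71 of 72 pairs, with a median difference of -0.74 on the log2 scale. This was 20 of 20 for SNORA (median difference -1.48), 48 of 49 for SNORD (-0.67) and 3 of 3 for SCARNA (-0.95). The exception was SNORD117 in DDX39B (an RNA helicase), at -0.07 against -0.20. All pairs rest on the same 2 RNA libraries, and hosts with several snoRNAs enter more than once.

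TAF1D, a subunit of the RNA polymerase I factor SL1, holds 5 members with values and had itself a log2 ratio of 0.00. Its 3 H/ACA snoRNAs SNORA25, SNORA8 and SNORA18 stood at -3.75, -1.49 and -0.51, and its 2 C/D snoRNAs SNORD5 and SNORD6 at -0.79 and -0.56. The snoRNAs of 1 host thus ranged from the lowest ratio of the table to near the C/D median. SNHG12, whose ratio of 0.97 was the highest among the hosts, holds SNORA44 (-2.52), SNORA61 (-0.63) and SNORD99 (-0.58). RPS12 (-0.02) holds SNORA33 (-2.83) and SNORD100 (-0.83), and NOP56 (0.25) holds SNORA51 (-1.21) and 3 SNORD genes with a mean of -0.49. In RPL5 the means were -1.02 for SNORA and -0.27 for SNORD, while in NCL (nucleolin) SNORA75 stood at -0.98 above SNORD82 at -1.17. The SNORA mean was thus the lower one in 5 of 6 hosts. These are the hosts with an RNA ratio that hold members of both classes with at least 50 RNA reads.

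**Figure D4:**
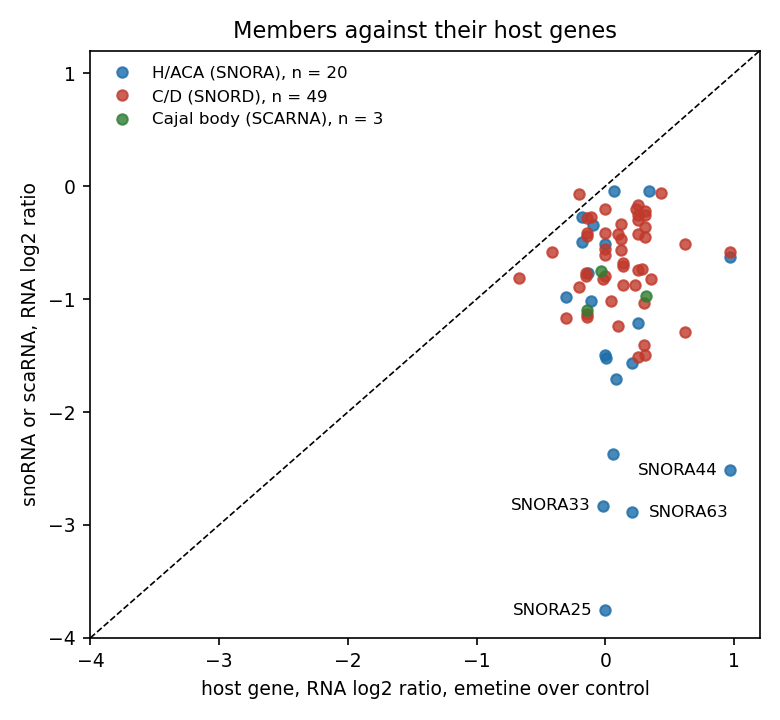
RNA log2 ratio, emetine over control, of 72 snoRNAs and scaRNAs (vertical axis) against that of the host gene (horizontal axis), 1 point per member, coloured by class, with the dashed line marking equal ratios. All points but 1, SNORD117, lie below the line, and SNORA25 is lowest at -3.75 with a host at 0.00.

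Of the noncoding hosts, which serve mainly as carriers of snoRNAs, 7 had at least 50 RNA reads, with a median log2 ratio of 0.15, 4 above and 3 below 0. SNHG12 and SNHG1 were at 0.97 and 0.31, SNHG6 at 0.24 and GAS5 at 0.15, while SNHG3 and SNHG7 were both at -0.79. Of 34 coding hosts 17 were above and 17 below 0, with a median of -0.01 and a range of -0.67 (RPL17, a ribosomal protein) to 0.34 (DKC1). EEF2 (elongation factor), EIF4G2 (a translation initiation factor) and TCP1 (a chaperonin subunit) were at 0.13, 0.10 and 0.07, and NCL at -0.30. Of the 25 listed proteins of snoRNP particles and their assembly, 13 had RNA values, 11 above and 2 below 0 with a median of 0.17. NOLC1 (a nucleolar and Cajal body chaperone of snoRNPs) was at 0.37, DKC1 at 0.34, the C/D core proteins NOP56, NOP58 and FBL at 0.25, 0.14 and 0.05, and the assembly factor ZNHIT6 at -0.03. None of the genes in these 3 lists was past 1 in either direction. The shift of 0.073 between scalings applies to these genes as well, so the sign of a value closer to 0 than that depends on the scaling.

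In the authors' deposited table, which relates CLIP to RNA, member ratios were mostly positive. The deposited ratio of emetine to control, converted to log2, was above 0 for 136 of 181 member peaks (75.1%), against 50.8% of all peaks. Its median was 1.61 for SNORA, 0.81 for SNORD and 1.06 for SCARNA peaks, where 27 of 29 were above 0, against 0.05 for all peaks and 0.54 for other noncoding exon peaks. This ratio equals the CLIP change minus the RNA change of the same gene. All peaks of a gene share 1 RNA change, and the 29 SCARNA peaks lie in 8 genes, so these counts of peaks are not independent. The CLIP change alone was above 0 for 18 SCARNA peaks and below 0 for 11. The median CLIP change was 0.06, 0.22 and 0.18 for the SNORA, SNORD and SCARNA peaks, and the median RNA change over the same peaks was -0.98, -0.57 and -0.80. The SNORA33 peak named above had a deposited log2 ratio of 2.90, with a CLIP change of 0.06 and an RNA change of -2.83. The deposited ratio of the SNORA74A peak, 2.11, was made of a CLIP change of 0.79 and an RNA change of -1.32 from 14 and 14 reads. Since each RNA value comes from 1 library, the deposited ratios carry no replicate error for their RNA part.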

How the data were processed

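Ago2 CLIP (3 libraries per treatment) and RNA-seq (1 library per treatment) of 293S cells with and without emetine were used. The authors deposited 2 natural log values per peak, an average and an emetine to control ratio of normalised CLIP over RNA, per the file headers; that the base is the natural one follows from the values, and log2 was had by division. The submitters' processing notes name hg19, Bowtie 0.12.8, TopHat and DESeq without roles; the peak caller is not given in the sources used here. RNA was extracted with Trizol and processed by a method named NSR, per the labels.

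The value of a treatment is ln(1 + factor × reads), averaged over its 3 CLIP libraries, less the same term for its RNA library. Whole reads were recovered from this for all 22506 peaks within 2e-14, or 1e-13 for the largest averages. Shifted member values matched by chance 1 time in 1180 (emetine) and 0 times (control). The value of 1 read was 8.86, 3.00 and 2.81 in the emetine and 8.00, 2.82 and 2.43 in the control CLIP libraries, and 2.51 and 6.37 in the emetine and control RNA libraries. RNA reads of the median gene were 289 (emetine) and 111 (control).

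Peaks were tested in limma 3.58.1 (R 4.3.3, trended variance) on log2(1 + factor × reads) of 6 libraries, with treatment as the one term and no filter. Benjamini-Hochberg adjustment at 0.05 ran over all peaks, or all genes for sums. Such changes compare mean logarithms and can differ from ratios of read totals. Both steps were tested on simulated data. Exact permutation tests used scipy 1.17.1 in Python 3.11.15, and figures matplotlib 3.10.9. Intervals of shares are Wilson 95%, those of ratios exact binomial. Amplified reads are not independent molecules, so intervals cover counting error only. RNA ratios used 1 library per treatment.

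Of the members, 109 of 118 matched GENCODE v29, and hosts and sequences come from it. SCARNA17 was left out of lengths because its GENCODE model was shorter than its peaks; coordinates are hg19 as listed. The members and lists were chosen with earlier results of these data known. Named genes were the 8 SNORA, 8 SNORD and all SCARNA genes with the most CLIP reads, the 6 lowest and 6 highest RNA ratios, the 4 smallest CLIP p-values and up to 6 genes per list; members named for a rank of the deposited average, as host neighbours or for RNA level were chosen after their values were seen. Alternatives covered the constant (0.5 and 5), filters, scaling, limma-voom, each library left out, identical peaks and sums per gene.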

Additional observations from a re-analysis of the deposited data

How the results depend on the processing

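Depth limits the CLIP comparison of single peaks: the median member peak held 31 reads over 6 libraries. The count of 0 member peaks past the limma test was found under every alternative run. The count over all listed peaks or genes was 0 in every run as well, so it is not particular to the members. No paired analysis was possible because the recovered libraries carry no antibody or replicate number. Their numbers here, set by the value of 1 read, do not pair them. The tests are therefore unpaired, and the spread between antibodies stays in their error. With each library left out in turn, the emetine minus control difference in share (percentage points) was -0.214 to 0.501 for SNORD, 0.00385 to 0.165 for SNORA and 0.0162 to 0.202 for SCARNA, and with noncoding exon reads as denominator it was -0.0667 for SNORD. The log2 difference was -0.39 to 0.24 for SNORD over SNORA, 0.026 with the leading gene of each class left out, and -0.27 to 0.70 for SCARNA over SNORA. The CLIP log2 change was -0.23 to 0.25 for SNORA33 (0.25 with library 2 of each treatment left out), -0.019 to 0.91 for SNORD30, -0.37 to 1.32 for SNORD100 (-0.35 with library 2 of each left out), -0.31 to 1.27 for SCARNA2 and -1.02 to 1.86 for SCARNA17. It kept its sign for SNORA74A (0.38 to 1.03) and for the peaks of SNORA62 (1.34 to 4.02), SNORD17 (1.08 to 3.61), SNORA46 (-4.33 to -2.68) and SNORD21 (-4.68 to -4.30). Scaled to all RNA reads, the RNA log2 ratio was 0.015 for SNORD8, 0.028 for SNORA56, 0.033 for SNORA20, 0.046 for SNORA68, 0.052 for SNORD33 and 0.49 for SNORA27. The alternatives with library 2 of each treatment left out, those without the members in TAF1D, and those of the counts of RNA ratios below 0 and -1 were chosen after seeing the data. Without the TAF1D members the SNORA median RNA ratio was -0.98. The cause of these shifts was not tested.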
